A study of Caenorhabditis elegans with 16 samples.

Results

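C-type lectin genes of *Caenorhabditis elegans* carry the name *clec* followed by a number, and every row of the count table with such a name was taken, which gave 249 of 42048 genes. Of these, 76 passed the filter on low counts and were tested, 126 had counts below the filter and 47 had no count in any library. RNA was sequenced from pools of whole adult worms, all kept on OP50 *E. coli* at 20 °C and treated 18 to 24 h after the L4 stage, in 16 libraries that form 4 groups of 4 biological replicates. N2 worms, the wild-type strain, were placed on plates with 4 mM auxin for 4 h or on plates without auxin, and so were *syp-2::AID* worms, in which SYP-2, a protein of the synaptonemal complex, carries an auxin-inducible degron. The degron strain is homozygous for the *ieSi38* transgene, which makes the plant F-box protein TIR1 from the germline-active *sun-1* promoter, and auxin brings tagged SYP-2 to TIR1 for degradation. N2 worms have neither the tag nor TIR1, so that tag, TIR1 and strain background cannot be told apart between the strains. No group was exposed to a pathogen.

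C-type lectins share a fold that in many animals binds sugars, often with calcium. In *C. elegans* the family is far larger than in most animals, most members have a signal for secretion, and many are made in the intestine. Distinct sets of these genes are known to change when worms meet different bacteria, some of them under the p38 kinase PMK-1, and several are used as markers of the immune response.

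Total counts per library ranged from 13964761 to 18741524, and *clec* genes took 0.326% to 0.422% of them. Between 64 and 76 *clec* genes reached 10 counts in a library. The transcript of *syp-2* lay between 22.3 and 32 CPM (counts divided by the scaled total of the tested genes, on the usual per-megaread basis) over the 16 libraries, and since the degron acts on the protein this does not check the labels. Among the auxin-treated *syp-2::AID* worms, replicates 3 and 4 were unlike the 14 remaining libraries. Their share of counts on ribosomal protein genes was 18.7% and 18.8%, where the 14 had 11.3% to 15.2%, and their share on the yolk protein (vitellogenin) genes was 5.39% and 5.17%, where the 14 had 7.62% to 9.68%. When each library's log2 level of a gene was set against that gene's average over the 16 libraries, the Spearman rho of the excess with exon length, across 10340 tested genes, was -0.56 and -0.63 in these replicates and 0.06 to 0.30 in the 14, so that longer transcripts were lower in them. Calls with auxin in *syp-2::AID* worms are therefore also given without these replicates, a choice made after seeing the data, in an analysis with its own filter, scaling and estimate of the spread that tested 81 *clec* genes of 12193 genes. Because RNA came from whole worms, fewer cells of a type and less RNA per cell cannot be told apart.

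The levels of the family spanned several orders of magnitude, and a few members held most of the counts. The 5 members with the highest CPM, *clec-87*, *clec-63*, *clec-88*, *clec-50* and *clec-91*, made up 77.9% of the summed CPM of all *clec* genes. Among the 76 tested members, 6 had a mean of at least 100 CPM, 21 lay from 10 to under 100 CPM, 35 from 1 to under 10 CPM and 14 under 1 CPM. Per kilobase of exon, *clec-87* stood highest with 1560 CPM per kb, followed by *clec-63* with 484, *clec-88* with 267, *clec-91* with 264 and *clec-50* with 222 CPM per kb. Exons of *iars-2*, *ctsa-4.1* and *ZK858.8* lie within or reach into *clec-87*, *clec-88* and *clec-91* in the annotation, so reads of these pairs may be shared. Just inside the filter were *clec-206* at 0.362 CPM and *clec-89* at 0.524 CPM, and just outside it *clec-225* at 0.440 CPM and *clec-198* at 0.406 CPM, averaged over the 16 libraries. No untested member had more than 22 counts in a library.

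**Figure D1:**
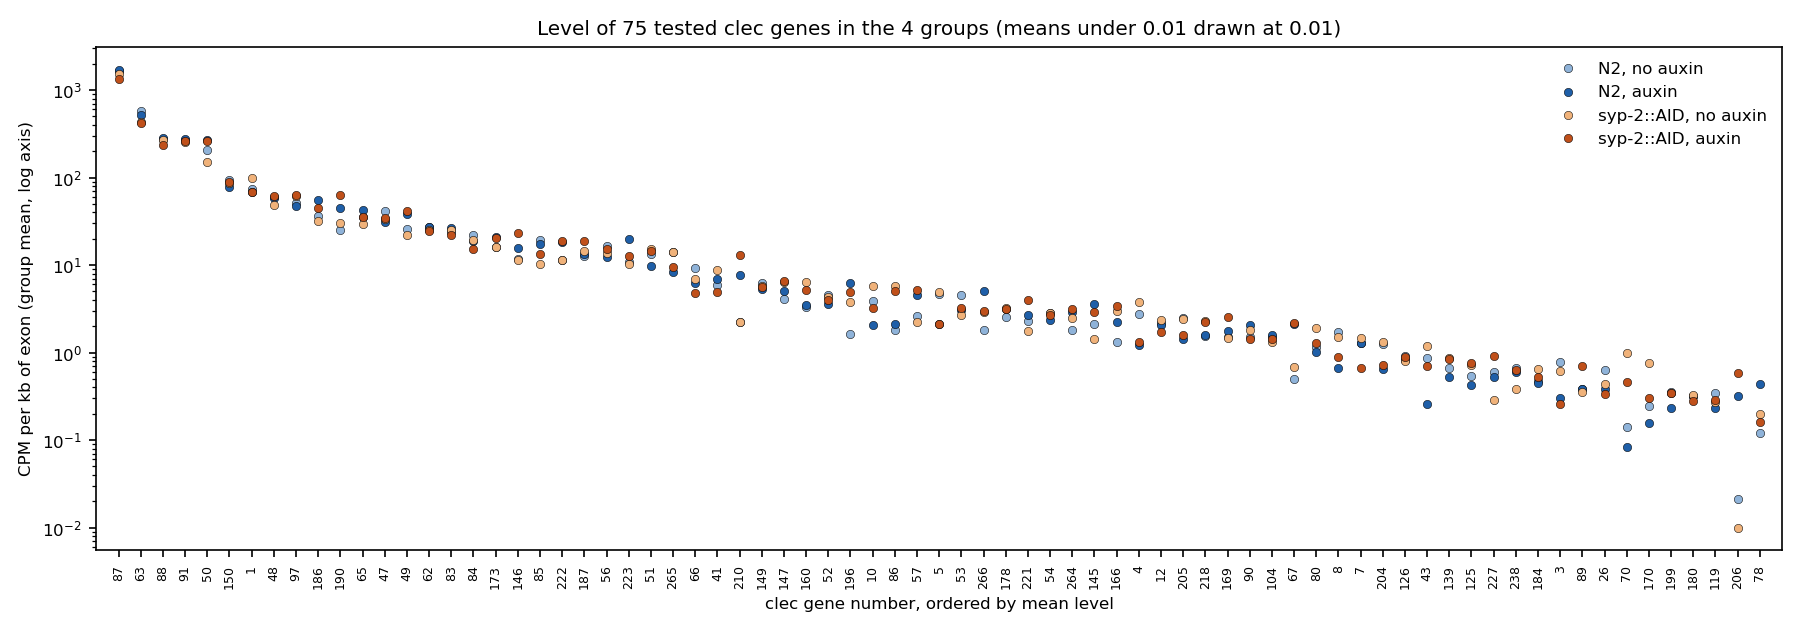
Group means of the 75 tested *clec* genes with a known exon length, in CPM per kilobase of exon on a log axis, ordered by their mean over the 4 groups, with 1 point for each group. *clec-87* stands at the left with a mean of 1560 CPM per kb, and the points of most genes lie close together while those of *clec-210*, *clec-67*, *clec-70* and *clec-206* are spread.

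The summed level of the family differed with auxin by less than the SD of the untreated libraries in both strains, when scaled by TMM. It was 3912 ± 196 CPM (SD, n = 4) in untreated and 4014 ± 98.1 CPM (SD, n = 4) in auxin-treated N2 worms. Worms of the degron strain had 3514 ± 125 CPM (SD, n = 4) without and 3490 ± 77 CPM (SD, n = 4) with auxin. As a share of unscaled counts, the family took 0.357% to 0.385% in untreated and 0.402% to 0.422% in treated N2 libraries, higher with auxin and with no overlap, and 0.356% to 0.367% and 0.326% to 0.376% in *syp-2::AID* libraries. Since a handful of members set these sums, they say little of the others.

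The first question was which *clec* genes respond to auxin plates in worms without a degron. In N2 worms *clec-67*, *clec-196*, *clec-210* and *clec-266* rose by between 1.49 and 2.06 on the log2 scale, and *clec-206* rose from near 0. *clec-43*, *clec-8*, *clec-4* and *clec-5* fell, with log2 fold changes between -1.70 and -1.14. In all 17 of 76 tested *clec* genes changed, or 22.4%, where 5.43% of all 11776 tested genes did, at an adjusted p under 0.05 in edgeR's quasi-likelihood test. Of these 9 rose and 8 fell, or 11.8% and 10.5%, against 3.99% and 1.44% of all genes. Without scaling factors the split was 11 to 6, but the median log2 fold change of all genes was then 0.15 in place of 0.01. The values of treated and untreated libraries did not overlap for 24 members, or 31.6%, against 17.2% of all genes. The count was 10 without auxin-treated N2 replicate 3, 11 without auxin-treated replicate 2 and 11 without untreated replicate 3. In these analyses 3.9%, 3.59% and 3.48% of all genes were called. Without auxin-treated *syp-2::AID* replicates 3 and 4 it was 26 of 81, all 17 genes among them, where 12.9% of all genes changed.

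In *syp-2::AID* worms *clec-210*, *clec-67*, *clec-227* and *clec-57* rose by between 1.20 and 2.53 on the log2 scale, *clec-206* rose from 0 counts, and *clec-4* and *clec-5* fell, with log2 fold changes of -1.51 and -1.26. In all 16 of the 76 changed with auxin, or 21.1%, against 7.2% of all genes. Here 11 rose and 5 fell, or 14.5% and 6.58%, where 5.27% and 1.93% of all genes did. Treated and untreated libraries did not overlap for 23 members, or 30.3%, against 13% of all genes. Without auxin-treated replicates 3 and 4, 14 of 81 members changed and 11 of the 16 were among them, while 3.64% of all genes changed. The count was 26 of 80 without auxin-treated replicate 2 alone, where 26.5% of all genes were called.

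The median log2 fold change of the 76 members was -0.03 in N2 and -0.00076 in *syp-2::AID* worms, beside 0.01 and 0.03 over all genes. The median of its absolute value was 0.37 in each strain, against 0.18 of all genes in N2 and 0.27 in *syp-2::AID* worms. By sign alone, 24 members were higher with auxin in both strains, 25 were lower in both and 27 differed in sign. Across 75 members, without *clec-206* whose untreated libraries are at or near 0, the log2 fold changes of the strains, which share no library, gave a Pearson r of 0.65 and a Spearman rho of 0.63, where the Pearson r across all tested genes was 0.50. Genes are not independent replicates, and no test was made of these values.

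**Figure D2:**
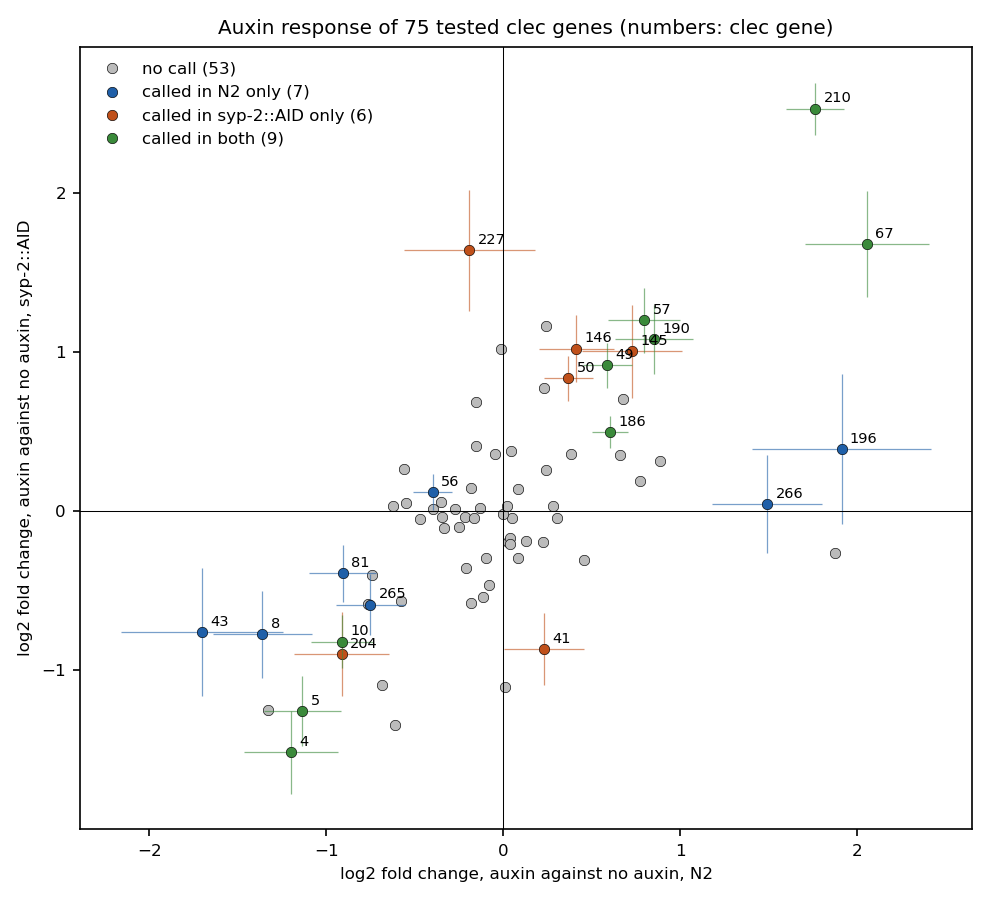
Log2 fold change with auxin in N2 worms (horizontal axis) against that in *syp-2::AID* worms (vertical axis) for 75 tested *clec* genes, with bars of 1 standard error on the genes called in either strain. *clec-206* is left out because its untreated libraries are at or near 0, and *clec-210* (1.76 and 2.53) and *clec-67* (2.06 and 1.68) lie farthest to the upper right.

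Called in both strains, in the same direction, were 10 members, or 13.2% of those tested, against 3.07% of all genes. They made up 58.8% of the members called in N2 and 62.5% of those called in *syp-2::AID* worms. *clec-210*, *clec-67*, *clec-206*, *clec-57*, *clec-190*, *clec-49* and *clec-186* rose in both strains, and *clec-4*, *clec-5* and *clec-10* fell in both. These counts, and those of each strain, include *clec-206*, which passed the filter only through auxin-treated libraries and so had to differ. Of the 23 members called in at least 1 strain, 20 had the same sign in both.

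The rise with the smallest adjusted p in each strain was that of *clec-210*, which exons of *srt-56* overlap on the opposite strand. Untreated N2 libraries held 3.33, 2.08, 2.51 and 2.67 CPM and auxin-treated ones 8.13, 10.6, 8.48 and 8.96 CPM. Those of *syp-2::AID* worms held 2.73, 2.46, 2.38 and 2.99 CPM without and 13.8, 14.4, 14.5 and 18.4 CPM with auxin. Every treated library lay above every untreated one, and the highest value was that of auxin-treated *syp-2::AID* replicate 4. *clec-210* rose 3.40-fold in N2 (log2 1.76, SE 0.16, edgeR adjusted p = 2.73e-06) and 5.78-fold in *syp-2::AID* worms (log2 2.53, SE 0.16, edgeR adjusted p = 2.20e-08).

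*clec-67*, an intestinal gene known to rise on the pathogen *Pseudomonas aeruginosa* under PMK-1, was the other strong riser. It stood at 1.63, 0.807, 0.961 and 0.735 CPM in untreated and 4.09, 5.82, 4.11 and 3.35 CPM in treated N2 libraries. Those of *syp-2::AID* worms gave 0.909, 1.15, 0.919 and 2.57 CPM without and 4.81, 4.77, 5.22 and 2.99 CPM with auxin. The groups did not overlap in either strain, though untreated replicate 4 and treated replicate 4 of *syp-2::AID* worms came close. The log2 fold change was 2.06 in N2 (SE 0.35, edgeR adjusted p = 0.00133) and 1.68 in *syp-2::AID* worms (SE 0.33, edgeR adjusted p = 0.00400).

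*clec-206* was close to absent without auxin and is the tested member with the lowest mean. Untreated N2 libraries had 1, 1, 0 and 0 counts and treated ones 5, 6, 5 and 16 counts. All 4 untreated *syp-2::AID* libraries had 0 counts, and the treated ones had 22, 18, 3 and 15 counts. It reached 10 counts in 4 libraries, all of them auxin-treated, so that it passed the filter through the groups in which it is high and had to differ there (edgeR adjusted p = 0.0318 in N2 and 0.000851 in *syp-2::AID* worms, given as a description), with no overlap of treated and untreated libraries. Pooled over each group, the ratio in N2 was 14.6, with an exact 95% interval of 3.74 to 126 that covers counting error only. Against a floor of 3 counts over the untreated group, its level in auxin-treated *syp-2::AID* worms was at least 22.3-fold higher.

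*clec-57*, which neighbours *clec-227* on chromosome V, gave 3.79, 4.44, 2.37 and 2.87 CPM in untreated and 4.89, 6.32, 6.23 and 6.03 CPM in treated N2 libraries. Its values in *syp-2::AID* worms were 3.39, 3.14, 2.16 and 2.87 CPM without and 6.12, 7.18, 7.76 and 5.56 CPM with auxin. All treated libraries were higher than all untreated ones of the same strain, by a log2 fold change of 0.80 in N2 (SE 0.20, edgeR adjusted p = 0.0293) and 1.20 in *syp-2::AID* worms (SE 0.20, edgeR adjusted p = 0.00105). *clec-190* had more counts, at 22, 10.9, 15.4 and 28.4 CPM in untreated and 34.7, 35.9, 35.5 and 32.3 CPM in treated N2 libraries. In the degron strain it was at 20.5, 18.4, 23.9 and 29.3 CPM without and 42.3, 43.5, 55.6 and 53.2 CPM with auxin. The untreated libraries scattered widely and the treated N2 ones hardly at all, with no overlap in either strain. *clec-190* rose by 0.85 on the log2 scale in N2 (SE 0.22, edgeR adjusted p = 0.0296) and by 1.08 in *syp-2::AID* worms (SE 0.22, edgeR adjusted p = 0.00432). Without auxin-treated *syp-2::AID* replicates 3 and 4 the latter was 0.90 with an edgeR adjusted p = 0.115 and no call.

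*clec-49*, a gene that worms need for full resistance to *Serratia marcescens*, is next to *clec-50* on chromosome V. Its levels were 30.9, 28.7, 22.7 and 25.7 CPM in untreated and 36.8, 42.3, 43 and 40.3 CPM in treated N2 libraries. Without auxin the *syp-2::AID* libraries were at 28.8, 21.3, 20.1 and 22.4 CPM and with it at 38.7, 35.9, 48.3 and 52 CPM. Treated libraries again lay above untreated ones throughout, and the highest 2 values were those of auxin-treated *syp-2::AID* replicates 3 and 4. The log2 fold change was 0.59 in N2 (SE 0.14, edgeR adjusted p = 0.0177) and 0.92 in *syp-2::AID* worms (SE 0.14, edgeR adjusted p = 0.000354), and 0.69 in the latter without these replicates (edgeR adjusted p = 0.00406).

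*clec-186* rose less than 1 log2 unit in each strain, with little scatter. It stood at 50.1, 44, 38.9 and 42.1 CPM in untreated and 63.8, 76.1, 66.8 and 59.6 CPM in treated N2 libraries. The degron strain gave 42.1, 36.2, 36.5 and 36.6 CPM without and 56.7, 55.3, 54.8 and 46.8 CPM with auxin. No treated library fell to the level of an untreated one, and *clec-186* rose by 0.60 on the log2 scale in N2 (SE 0.10, edgeR adjusted p = 0.00108) and by 0.50 in *syp-2::AID* worms (SE 0.10, edgeR adjusted p = 0.00452). Its neighbour *clec-187* was not called in either strain, with log2 fold changes of 0.04 and 0.38.

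Of the 3 members that fell in both strains, *clec-4* is a gene linked to defence against *Bacillus thuringiensis*. Its untreated N2 libraries held 3.53, 4.10, 4.66 and 3.47 CPM and its treated ones 1.36, 2.56, 1.81 and 1.16 CPM. In the degron strain it went from 5.39, 5.44, 5.35 and 5.09 CPM to 1.66, 1.21, 1.67 and 2.92 CPM, in replicate order. Treated libraries were below untreated ones in both strains, by a log2 fold change of -1.20 in N2 (SE 0.26, edgeR adjusted p = 0.0106) and -1.51 in *syp-2::AID* worms (SE 0.26, edgeR adjusted p = 0.00111). *clec-5*, on chromosome III, gave 6.41, 5.65, 5.76 and 7.75 CPM in untreated and 3.24, 2.84, 2.0 and 3.53 CPM in treated N2 libraries. Untreated *syp-2::AID* libraries lay close together, at 6.55, 6.80, 6.76 and 7.07 CPM, and the treated ones were at 2.35, 2.23, 4.35 and 2.50 CPM. The groups stayed apart, and *clec-5* had a log2 fold change of -1.14 in N2 (SE 0.22, edgeR adjusted p = 0.00397) and -1.26 in *syp-2::AID* worms (SE 0.22, edgeR adjusted p = 0.00128). *clec-10* was at 5.75, 4.51, 4.43 and 5.95 CPM in untreated and 2.67, 2.70, 2.18 and 3.41 CPM in treated N2 libraries. The other strain gave 6.61, 7.43, 8.71 and 7.42 CPM without and 3.55, 4.77, 4.42 and 4.38 CPM with auxin. Each strain's treated values were lower than its untreated ones, with log2 fold changes of -0.91 (SE 0.18, edgeR adjusted p = 0.00403) in N2 and -0.82 (SE 0.17, edgeR adjusted p = 0.00526) in *syp-2::AID* worms.

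Apart from *clec-190*, the members called in both strains were also called in *syp-2::AID* worms without treated replicates 3 and 4. The log2 fold changes were then 2.42 for *clec-210* (edgeR adjusted p = 1.16e-07), 1.79 for *clec-67* (0.00729), 1.20 for *clec-57* (0.00487) and 0.57 for *clec-186* (0.00250). They were -1.88 for *clec-4* (edgeR adjusted p = 0.000460), -1.57 for *clec-5* (0.000300) and -0.86 for *clec-10* (0.0316), and *clec-206* had an edgeR adjusted p = 0.000354, given as a description.

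**Figure D3:**
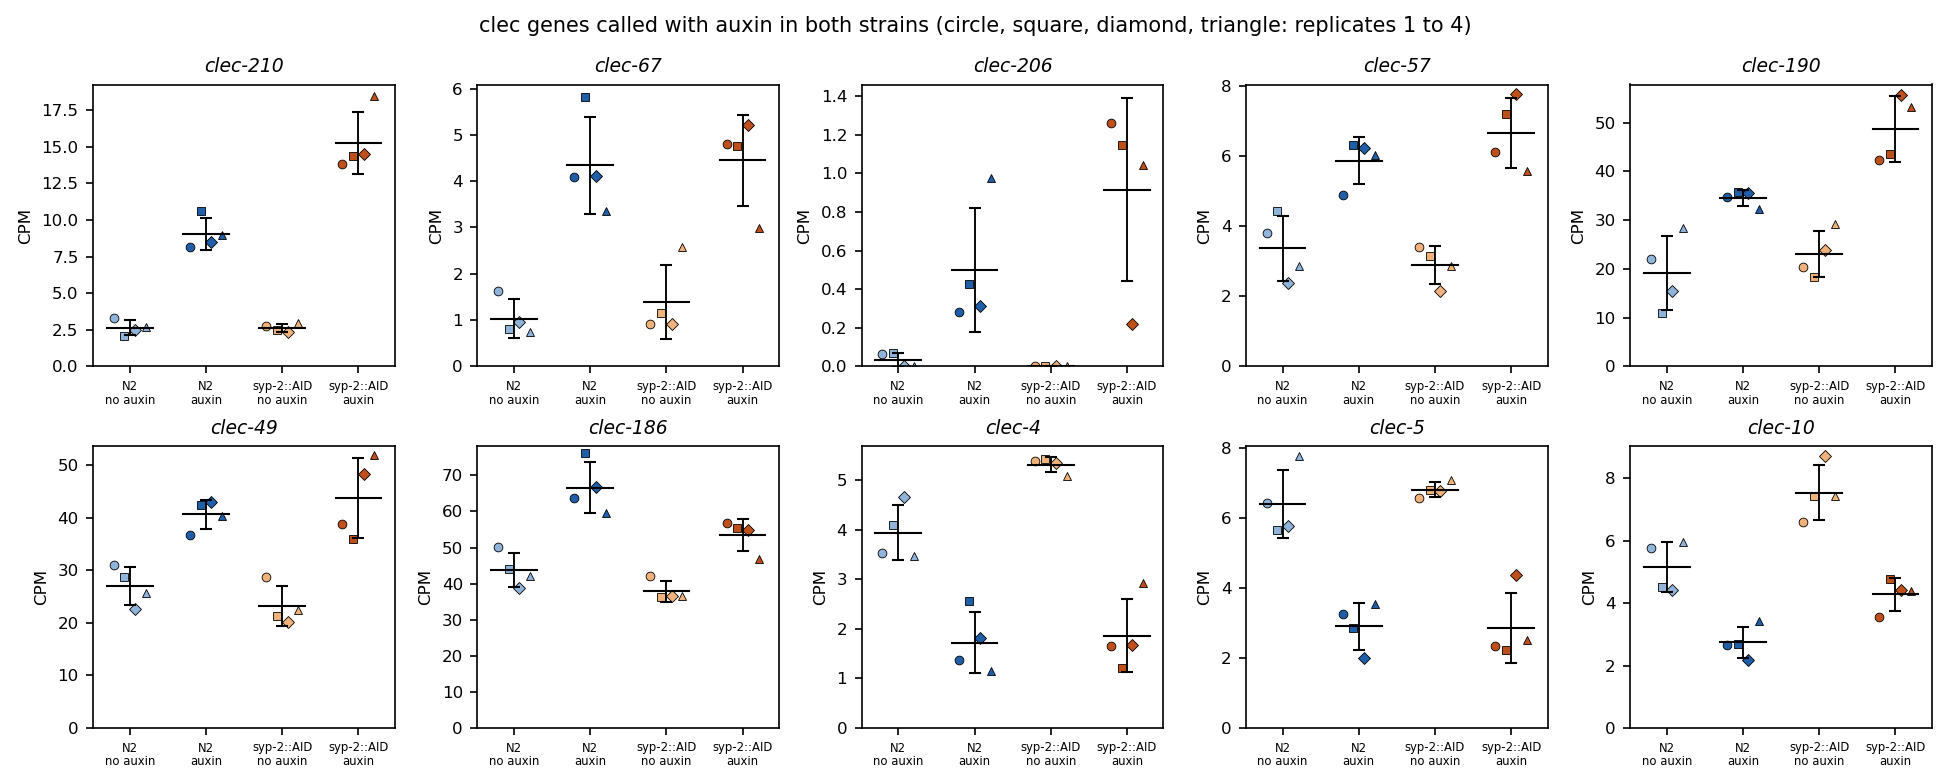
CPM of the 10 *clec* genes called with auxin in both strains, with 1 panel for each gene, 1 marker for each library and a line and bar for the mean and SD of 4 libraries. In each panel the auxin-treated libraries of a strain lie all above or all below its untreated ones, with *clec-210* between 13.8 and 18.4 CPM in auxin-treated *syp-2::AID* worms.

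Markers of other tissues were read beside these changes. The summed CPM of 8 intestine markers, yolk protein genes included, ranged from 57067 to 65968 in untreated and from 47545 to 54825 in treated N2 libraries, and from 52989 to 62714 and from 33824 to 48716 in *syp-2::AID* worms. It was thus lower with auxin in both strains, with no overlap, and all 8 were tested and none was at 0. Among them *act-5*, an intestinal actin (log2 -0.47), and the protease gene *asp-1* (log2 -0.51) fell in N2, and the protease gene *cpr-1* rose in *syp-2::AID* worms (log2 0.62, and 0.51 without treated replicates 3 and 4, edgeR adjusted p = 0.00107). *cpr-1* was also lower in untreated *syp-2::AID* than in untreated N2 worms (log2 -0.64). Of the 8, 6 were not called with auxin in N2 and 7 were not in *syp-2::AID* worms, so the sum does not speak for each marker. Without treated *syp-2::AID* replicates 3 and 4, *ges-1* rose in N2 (log2 0.29, edgeR adjusted p = 0.040). There *vit-2* and *vit-6* fell beside *act-5* and *asp-1* (log2 -0.29 and -0.32, edgeR adjusted p = 0.0439 and 0.0303), and *elt-2* was not called (log2 0.32). Of 8 germline markers none was called in either strain (edgeR, with 1 at an unadjusted p under 0.05 in N2 and 0 in *syp-2::AID* worms). Of 4 body wall muscle markers *myo-3*, a myosin heavy chain gene, had a log2 fold change of -0.89 in *syp-2::AID* worms (edgeR adjusted p = 0.0310), which was -0.56 and not called without treated replicates 3 and 4 (edgeR adjusted p = 0.515). The summed CPM of these 4 was 1655 and 1742 in those replicates, against 3017 and 3197 in treated replicates 1 and 2 and 2699 to 3625 in untreated libraries. Of 4 tested hypodermis markers *rol-6*, a cuticle collagen gene, fell in N2 (log2 -3.99). Its spread was wide. Without treated *syp-2::AID* replicates 3 and 4 the SE of its N2 value was 1.15 (edgeR adjusted p = 0.0476). In *syp-2::AID* worms it was then at -6.6 with an SE of 3.6 and no call (edgeR adjusted p = 0.578). No pharynx or neuron marker was called, nor any of the 2 tested of 31 sperm markers. The part of tissue make-up in the changes of the *clec* genes was not tested.

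Next came the members called in a single strain. For none of them was the difference between the strains itself called, so they are not shown to respond in that strain alone. In N2 worms *clec-8*, *clec-43*, *clec-56*, *clec-81* and *clec-265* fell, and *clec-196* and *clec-266* rose, without a call in *syp-2::AID* worms.

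*clec-8* is next to *clec-4*. It stood at 2.81, 2.22, 2.07 and 4.07 CPM in untreated and 1.25, 0.852, 0.935 and 1.28 CPM in treated N2 libraries, and the groups did not overlap (log2 -1.36, SE 0.28, edgeR adjusted p = 0.00651). In the degron strain treated replicate 4, at 2.09 CPM, reached into the untreated values, and the log2 fold change was -0.77 (SE 0.27, edgeR adjusted p = 0.0883). *clec-81*, which has no entry under that name in the annotation used here, was at 3.79, 4.10, 3.77 and 5.41 CPM in untreated and 1.88, 2.56, 1.93 and 2.74 CPM in treated N2 libraries. Its *syp-2::AID* libraries were at 6.42, 5.44, 6.0 and 4.67 CPM without and 3.95, 3.75, 4.71 and 4.80 CPM with auxin, so that the groups overlapped in that strain only. *clec-81* fell in N2 (log2 -0.91, SE 0.19, edgeR adjusted p = 0.00735), and its log2 fold change in *syp-2::AID* worms was -0.39 (SE 0.18, edgeR adjusted p = 0.158).

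*clec-265* gave 14.4, 12.5, 12.7 and 18.8 CPM in untreated and 6.99, 10.7, 7.67 and 9.44 CPM in treated N2 libraries, with no overlap (log2 -0.75, SE 0.20, edgeR adjusted p = 0.0328). The *syp-2::AID* value was of like size, -0.59 (SE 0.19, edgeR adjusted p = 0.0740). Counts there were 250, 312, 281 and 197 without and 221, 171, 99 and 117 with auxin. The groups thus overlapped, and treated replicates 3 and 4 were the lowest. *clec-43*, a low member, had 1.37, 0.740, 0.961 and 3.01 CPM in untreated and 0.796, 0.355, 0.249 and 0.427 CPM in treated N2 libraries, so that a treated library overlapped with the untreated ones. Its fall in N2 (log2 -1.70, SE 0.46, edgeR adjusted p = 0.0383) was lost in 8 of 24 alternatives. *clec-56* showed the smallest called change, from 21.2, 22.9, 19.1 and 22.1 CPM to 16.1, 18.4, 14.5 and 15.7 CPM in N2 libraries. These values did not overlap, yet the call (log2 -0.40, SE 0.11, edgeR adjusted p = 0.0474) was lost in 16 of 25 alternatives.

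The rises of *clec-266* and *clec-196* were uneven inside the treated N2 group. *clec-266*, on chromosome X, was at 5.56, 6.05, 2.81 and 7.55 CPM in untreated and 22.2, 17, 14.7 and 8.04 CPM in treated N2 libraries, and replicate 4 was barely above the untreated values. *clec-196* went from 1.11, 0.874, 0.813 and 0.735 CPM to 4.43, 3.27, 3.87 and 1.83 CPM, replicate 4 being again the lowest of the treated libraries. The log2 fold changes were 1.49 (SE 0.31, edgeR adjusted p = 0.00769) for *clec-266* and 1.91 (SE 0.51, edgeR adjusted p = 0.0362) for *clec-196*, and the latter was lost in 8 of 25 alternatives. In *syp-2::AID* worms they were 0.05 (SE 0.31) and 0.39 (SE 0.47), with edgeR adjusted p = 0.932 and 0.575. *clec-78* had its treated N2 libraries in the same order as *clec-266*, 7.11, 6.32, 5.11 and 0.670 CPM, beside 0.915, 1.28, 0.370 and 2.61 CPM without auxin, and was not called (log2 1.88, SE 0.80, edgeR adjusted p = 0.215). In *syp-2::AID* libraries *clec-78* was at 0.667, 0.732, 3.52 and 3.65 CPM without and 3.55, 2.73, 0.290 and 0.417 CPM with auxin. The lowest values were those of treated replicates 3 and 4, in which longer transcripts were lower, and *clec-78* has 10850 bases of exon. The part of length in this was not tested. Exons of 7 annotated genes on the opposite strand overlap *clec-78*, so its reads may be shared.

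The summed CPM of 12 early embryo genes, of which 6 were tested and none was at 0 in all libraries, varied in the same libraries. It was 6.41, 5.25, 4.51 and 10.3 in untreated and 17.4, 17.3, 15.2 and 6.95 in treated N2 replicates 1 to 4, so that treated replicate 4 again had the lowest value. In the degron strain it was 7.21, 6.38, 12.2 and 14 without and 6.87, 4.26, 4.78 and 7.23 with auxin. One of these genes, *sdz-28*, was called in N2 (log2 1.5) and none in *syp-2::AID* worms (edgeR, with 4 and 2 of 6 at an unadjusted p under 0.05). The median log2 fold change of the 6 was 1.23 in N2 and -0.76 in *syp-2::AID* worms. For the difference in response 5 were at an unadjusted p under 0.05 and none was called. Without treated *syp-2::AID* replicates 3 and 4, *tbx-38* was called in N2 too (log2 1.39, edgeR adjusted p = 0.0216). The part of embryos carried by the worms in these 3 members was not tested.

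**Figure D4:**
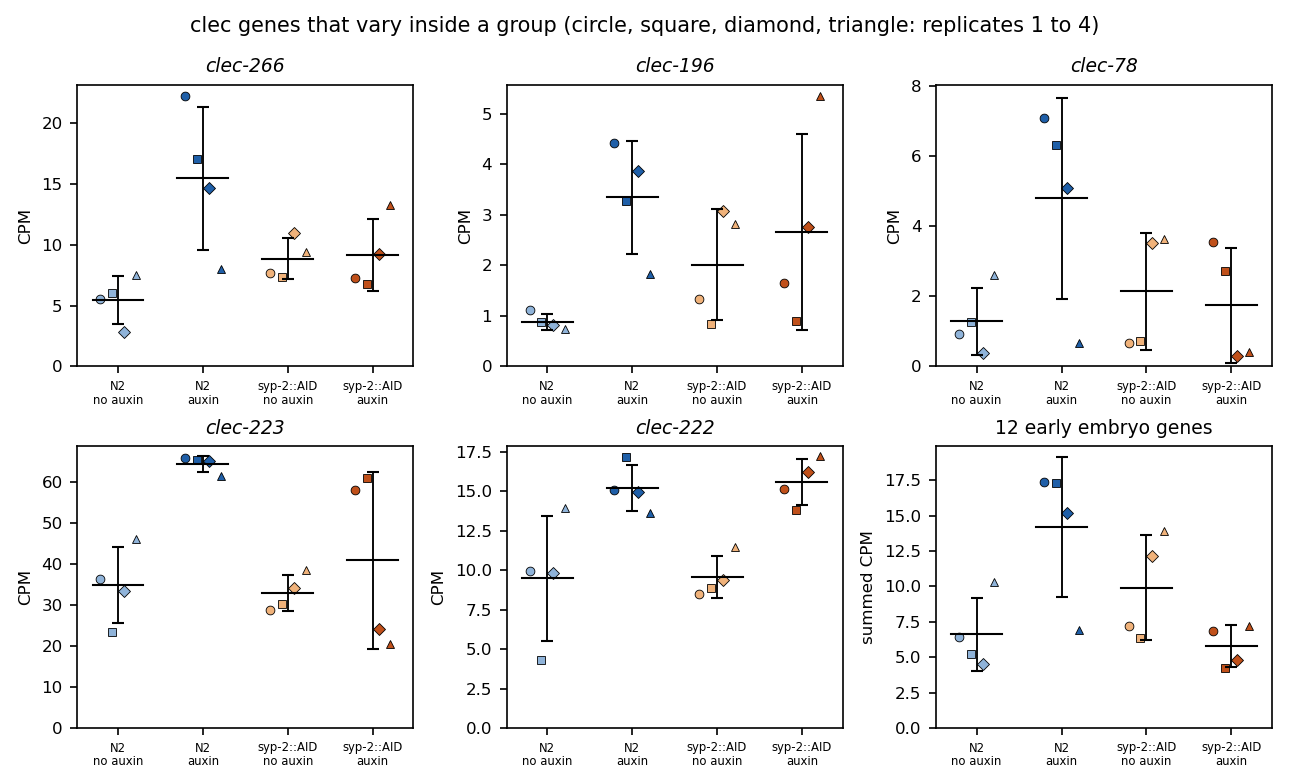
CPM of *clec-266*, *clec-196*, *clec-78*, *clec-223* and *clec-222*, and the summed CPM of 12 early embryo genes, in the 4 groups, with 1 marker for each library and a line and bar for the mean and SD of 4 libraries. Treated N2 replicate 4 (triangle) is the lowest of its group in all panels, at 8.04 CPM for *clec-266* against 14.7 to 22.2 CPM in the other 3.

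In *syp-2::AID* worms *clec-50*, *clec-145*, *clec-146* and *clec-227* rose and *clec-41* and *clec-204* fell without a call in N2. *clec-50*, the called member with the highest level per kilobase of exon, gave 186, 150, 142 and 147 CPM without and 220, 223, 316 and 355 CPM with auxin. The 2 highest values were those of treated replicates 3 and 4, and the groups did not overlap (log2 0.83, SE 0.14, edgeR adjusted p = 0.000943). Without these replicates *clec-50* still rose, by 0.51 (SE 0.10, edgeR adjusted p = 0.00458). N2 libraries were at 228, 213, 196 and 232 CPM without and 263, 312, 282 and 263 CPM with auxin, also with no overlap, at a log2 fold change of 0.37 (SE 0.14, edgeR adjusted p = 0.155).

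*clec-145* and *clec-146* are neighbours on chromosome II. *clec-146* was at 7.45, 5.18, 9.25 and 8.92 CPM without and 11.8, 14.6, 18.1 and 18.2 CPM with auxin in *syp-2::AID* libraries, and *clec-145* at 2.55, 1.10, 2.16 and 2.04 CPM and 3.55, 3.69, 3.70 and 4.80 CPM. Both had treated values above all untreated ones, with log2 fold changes of 1.02 (SE 0.21, edgeR adjusted p = 0.00542) and 1.00 (SE 0.29, edgeR adjusted p = 0.0454). Without treated replicates 3 and 4 neither was called, at 0.78 (edgeR adjusted p = 0.0813) and 0.89 (edgeR adjusted p = 0.265). The N2 values were 0.41 (SE 0.21) and 0.73 (SE 0.28), with edgeR adjusted p = 0.315 and 0.169. Exons of *Y48E1B.8* overlap *clec-145* on the opposite strand.

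*clec-227* lies between *clec-57* and *clec-56*, and these 3 neighbours did not behave alike. It was low, at 0.485, 0.262, 0.270 and 0.359 CPM without and 1.49, 0.954, 1.01 and 0.834 CPM with auxin in *syp-2::AID* libraries, and 0.850, 1.01, 0.296 and 0.668 CPM and 0.682, 0.426, 0.873 and 0.487 CPM in N2 libraries. The *syp-2::AID* groups did not overlap and the N2 groups did. The log2 fold change was 1.64 (SE 0.38, edgeR adjusted p = 0.0127) in *syp-2::AID* worms, 1.82 without treated replicates 3 and 4 (edgeR adjusted p = 0.0307), and -0.19 (SE 0.37, edgeR adjusted p = 0.842) in N2 worms. *clec-57* rose in both strains, as given above, while *clec-56* fell in N2 and had a log2 fold change of 0.12 (SE 0.11) in *syp-2::AID* worms.

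*clec-41*, linked like *clec-4* to defence against *Bacillus thuringiensis*, gave 26.7, 24.1, 20.3 and 25.7 CPM without and 12.9, 16.8, 15.9 and 7.44 CPM with auxin in *syp-2::AID* libraries. All treated values were lower, the lowest being that of replicate 4, and *clec-41* fell (log2 -0.87, SE 0.23, edgeR adjusted p = 0.0278). In N2 worms the libraries were at 16.9, 17.3, 13.9 and 16.8 CPM without and 14.2, 24.2, 13.9 and 24.1 CPM with auxin, with a log2 fold change of 0.23 (SE 0.23, edgeR adjusted p = 0.641). *clec-204* went from 1.94, 2.72, 1.73 and 3.05 CPM to 0.973, 1.40, 1.52 and 1.18 CPM in *syp-2::AID* libraries and from 1.44, 2.56, 2.81 and 2.0 CPM to 1.36, 0.923, 1.18 and 1.16 CPM in N2 libraries. Neither strain's groups overlapped, and the log2 fold changes were nearly equal, -0.90 (SE 0.26, edgeR adjusted p = 0.0475) and -0.91 (SE 0.27, edgeR adjusted p = 0.0566). Without treated *syp-2::AID* replicates 3 and 4, *clec-41* was at -0.70 (edgeR adjusted p = 0.130) and *clec-204* at -0.99 (edgeR adjusted p = 0.165), and neither was called. Conversely *clec-66*, *clec-223* and *clec-47* were called in this strain only then.

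*clec-223* has 3198 bases of exon and its neighbour *clec-222* has 827, and the pair was split by replicates 3 and 4, in which longer transcripts were lower. For *clec-223* degron-strain libraries were at 28.7, 30.2, 34.1 and 38.6 CPM without and 58.1, 60.9, 24.2 and 20.4 CPM with auxin, treated replicates 1 and 2 being the highest of the 8 and treated replicates 3 and 4 the lowest. N2 libraries held 36.3, 23.5, 33.5 and 46 CPM without and 65.8, 65.3, 65 and 61.4 CPM with auxin, and did not overlap. With all libraries the log2 fold changes were 0.32 (SE 0.28, edgeR adjusted p = 0.441) and 0.89 (SE 0.28, edgeR adjusted p = 0.0877). Without those replicates they were 0.86 (SE 0.18, edgeR adjusted p = 0.0124) and 0.88 (SE 0.15, edgeR adjusted p = 0.00185). *clec-222* did not have this split, at 8.49, 8.89, 9.41 and 11.5 CPM without and 15.2, 13.8, 16.2 and 17.2 CPM with auxin in *syp-2::AID* worms (log2 0.71, SE 0.23, edgeR adjusted p = 0.0713). The part of length in this was not tested, and both genes were singled out after their values were seen.

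Auxin led to no call in either strain for 53 members. Their log2 fold changes ran from -1.33 to 1.88 in N2 and from -1.34 to 1.17 in *syp-2::AID* worms, with quartiles of -0.33 and 0.13 in N2 and of -0.29 and 0.19 in *syp-2::AID* worms. Treated and untreated libraries of 6 of them did not overlap in N2 and of 7 in *syp-2::AID* worms, or 11.3% and 13.2%, against 17.2% and 13% of all genes. The shares of all genes include called genes, which these 53 leave out, so like is not set against like. *clec-3* had log2 fold changes of -1.33 (SE 0.39, edgeR adjusted p = 0.0573) in N2 and -1.25 (SE 0.40, edgeR adjusted p = 0.0687) in *syp-2::AID* worms and no overlap in either. *clec-3* reached 10 counts only in untreated libraries and so passed the filter through the groups in which it is high. Its values are therefore given as a description. *clec-170* and *clec-7* were lower in *syp-2::AID* worms, at -1.34 (SE 0.41, edgeR adjusted p = 0.0579) and -1.10 (SE 0.35, edgeR adjusted p = 0.0639). *clec-170* passed the filter only through untreated *syp-2::AID* libraries, so its fall there is also a description. The members with the highest levels were not called apart from *clec-50*. For *clec-87* the log2 fold change was 0.04 in N2 (95% interval -0.17 to 0.25) and -0.17 in *syp-2::AID* worms (-0.38 to 0.04), and for *clec-91* it was 0.02 (-0.12 to 0.16) and 0.04 (-0.10 to 0.17). For *clec-63* it was -0.16 (-0.42 to 0.09) and -0.04 (-0.30 to 0.21). *clec-88* had 334, 331, 327 and 319 CPM without and 315, 304, 261 and 255 CPM with auxin in *syp-2::AID* libraries, where the 2 lowest values were those of treated replicates 3 and 4 (log2 -0.21, SE 0.08, edgeR adjusted p = 0.0952).

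By position, on chromosome V 9 of 22 tested members were called in at least 1 strain, on chromosome II 6 of 17, on chromosome IV 4 of 21, on chromosome X 2 of 3, on chromosome III 1 of 4 and on chromosome I none of 8. *clec-81*, called in N2, has no chromosome here. Wherever they lie, 23 of the 76 members were called in at least 1 strain, or 30.3%. Of all genes 5.43% were called in N2 and 7.2% in *syp-2::AID* worms. Shares of all genes were not taken by chromosome, so these counts are not read as a result of position. Of 13 pairs of tested members that are neighbours among protein-coding genes, *clec-4* and *clec-8* both fell in N2, *clec-49* and *clec-50* both rose in *syp-2::AID* worms, and so did *clec-145* and *clec-146* and *clec-57* and *clec-227*. Other neighbours had opposite signs, as *clec-65* and *clec-66* with log2 fold changes of 0.24 and -0.58 in N2. Exons of *kqt-1* also overlap *clec-266*, those of the noncoding *F08H9.15* overlap *clec-57*, those of *alh-10* overlap *clec-86*, and those of *Y54G2A.40* and *Y54G2A.49* overlap *clec-85*, so that reads of these genes may be shared. The treatment of reads that match more than 1 gene is not stated, so that the split of reads between similar neighbours is uncertain.

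The design also asks whether the response to auxin differs between the strains, which is where loss of SYP-2 would add to the effect of the plates. No *clec* gene was called for this difference with edgeR (10 of 76, or 13.2%, at an unadjusted p under 0.05, against 17.6% of all genes), and 0.017% of all genes were. DESeq2 and limma-voom also called 0, with 10 and 9 members at an unadjusted p under 0.05 and lowest adjusted p values of 0.0544 and 0.275. The smallest adjusted p in edgeR was 0.218, for *clec-227* and, to that rounding, *clec-41*. For *clec-227* the response was higher in *syp-2::AID* worms by 1.83 on the log2 scale (95% interval 0.71 to 2.95), and for *clec-41* the difference was -1.10 (-1.77 to -0.42). *clec-210* differed by 0.77 (0.28 to 1.25) and *clec-266* by -1.45 (-2.37 to -0.52), both with an edgeR adjusted p = 0.221. The intervals of these 4 do not hold 0 before adjustment over all genes. *clec-78* and *clec-196* gave -2.14 (-4.51 to 0.23) and -1.52 (-2.98 to -0.06), and *clec-89*, a low member, 1.03 (-0.42 to 2.48). The value of *clec-78* includes the low treated *syp-2::AID* replicates 3 and 4 given above. For *clec-5* and *clec-186* the differences were -0.12 (-0.77 to 0.53) and -0.11 (-0.41 to 0.19), which leaves room for differences of the size given by these bounds.

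Without auxin, the strains differed in a single *clec* gene, or 1.32% of the 76, against 0.875% of all genes (19 members, or 25%, were at an unadjusted p under 0.05, against 17.6% of all genes). *clec-70*, known to rise on *Staphylococcus aureus*, was at 0.327, 0, 0.443 and 0.0668 CPM in untreated N2 and 0.849, 1.83, 1.84 and 1.38 CPM in untreated *syp-2::AID* libraries. The groups did not overlap, and *clec-70* was higher in *syp-2::AID* worms by 2.80 on the log2 scale (SE 0.60, edgeR adjusted p = 0.0393), though this call was lost in 10 of 24 alternatives. *clec-70* passed the filter mainly through untreated *syp-2::AID* libraries, with 14, 35, 34 and 23 counts against at most 6 in any N2 library, and so had to differ. Treated libraries had the same order, 0.114, 0.142, 0.125 and 0.122 CPM in N2 and 0.630, 1.40, 0.217 and 0.487 CPM in *syp-2::AID* worms, with a log2 difference of 2.40 (SE 0.69, edgeR adjusted p = 0.0797). The untreated values did not overlap between the strains for 15 members, or 19.7%, against 13.6% of all genes. The median log2 difference was -0.01 and its median absolute value 0.28, beside 0.02 and 0.19 over all genes.

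Several members without a call stood near the threshold. *clec-85*, an intestinal gene used as a reporter of PMK-1 activity, was at 29.9, 30.1, 30.4 and 20.9 CPM in untreated N2 and 18.8, 15.3, 11.9 and 12.3 CPM in untreated *syp-2::AID* libraries, with no overlap (log2 -0.94, SE 0.22, edgeR adjusted p = 0.0521). *clec-170* gave 0.588, 0.471, 0.148 and 0.401 CPM and 0.909, 1.41, 1.78 and 0.898 CPM (log2 1.61, SE 0.43, edgeR adjusted p = 0.0780), and *clec-86* gave 0.588, 0.605, 0.813 and 2.34 CPM and 2.24, 2.51, 4.54 and 4.67 CPM (log2 1.67, SE 0.45, edgeR adjusted p = 0.0786). Only untreated *syp-2::AID* libraries, with 15, 27, 33 and 15 counts, brought *clec-170* past the filter, so it had to differ. No other library had more than 9 counts of it. Among the lower members *clec-227* had a log2 difference of -1.04 (SE 0.39, edgeR adjusted p = 0.188). For *clec-86* untreated N2 replicate 4 overlapped with the *syp-2::AID* values. Without auxin-treated *syp-2::AID* replicates 3 and 4, 14 of 81 tested members were called, 9 higher and 5 lower in *syp-2::AID* worms, while 12.4% of all genes were. These included the abundant *clec-63* (log2 -0.43, SE 0.09, edgeR adjusted p = 0.0108) and *clec-50* (log2 -0.48, SE 0.08, edgeR adjusted p = 0.00417), both lower, as well as *clec-85* (edgeR adjusted p = 0.00288).

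Between the auxin-treated strains 2 members were called, or 2.63%, against 1.05% of all genes (23, or 30.3%, were at an unadjusted p under 0.05, against 27.4% of all genes). Treated libraries did not overlap for 15 members, or 19.7%, against 11.6% of all genes. *clec-210* was higher in *syp-2::AID* than in N2 worms, with the values given above (log2 0.76, SE 0.15, edgeR adjusted p = 0.0276), and so was *clec-81* (log2 0.92, SE 0.19, edgeR adjusted p = 0.0328). The treated libraries of the strains did not overlap for either gene. Without a call stood *clec-43*, higher by 1.39 (SE 0.46, edgeR adjusted p = 0.101), and *clec-78* and *clec-7*, at -1.42 (SE 0.77, edgeR adjusted p = 0.230) and -0.95 (SE 0.35, edgeR adjusted p = 0.118). For *clec-78* treated *syp-2::AID* replicates 3 and 4 were the low ones, as given above. Over the 76 members the median log2 difference was 0.12 and its median absolute value 0.31, beside 0.04 and 0.25 over all genes. Without treated *syp-2::AID* replicates 3 and 4 neither *clec-210* nor *clec-81* was called, at 0.64 (edgeR adjusted p = 0.122) and 0.76 (edgeR adjusted p = 0.169), and *clec-65* alone was, lower by a log2 value of -0.53 (edgeR adjusted p = 0.0145), where 0.435% of all genes were called.

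**Figure D5:**
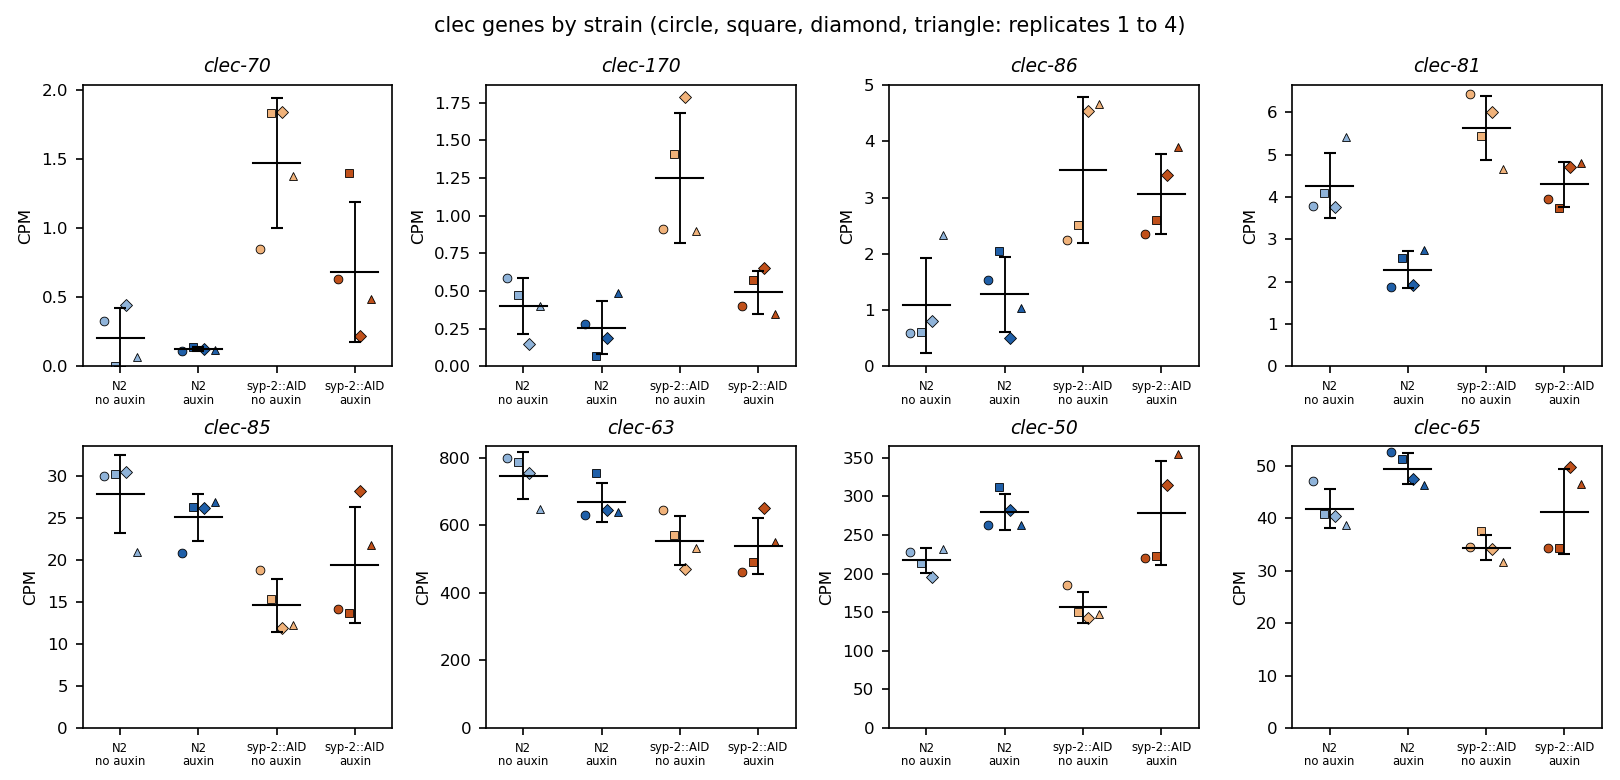
CPM of *clec-70*, *clec-170*, *clec-86*, *clec-81*, *clec-85*, *clec-63*, *clec-50* and *clec-65* in the 4 groups, with 1 marker for each library and a line and bar for the mean and SD of 4 libraries. Untreated *syp-2::AID* libraries of *clec-70* lie between 0.849 and 1.84 CPM, above all untreated N2 libraries, which lie between 0 and 0.443 CPM.

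Members known from infections were counted as a list of 18, of which 12 were tested, 5 had counts below the filter and 1 was at 0. In N2 worms *clec-49* and *clec-67* rose and *clec-4* fell. In *syp-2::AID* worms *clec-49* and *clec-67* rose and *clec-4* and *clec-41* fell. The list thus moved in both directions, and its median log2 fold change was 0.01 in N2 and -0.15 in *syp-2::AID* worms, beside 0.01 and 0.03 over all genes. Among its members without a call with auxin, *clec-52* had log2 fold changes of -0.33 (SE 0.18) and -0.11 (SE 0.18), *clec-62* of 0.00 (SE 0.12) and -0.02 (SE 0.12), and *clec-65* of 0.24 (SE 0.12) and 0.26 (SE 0.12), in N2 and *syp-2::AID* worms. *clec-66* was at -0.58 (SE 0.20, edgeR adjusted p = 0.127) and -0.56 (SE 0.21, edgeR adjusted p = 0.0988). *clec-39*, *clec-42*, *clec-60*, *clec-61*, *clec-71* and *clec-82* were not tested, and among them are *clec-60* and *clec-71*, which like *clec-70* are known from *Staphylococcus aureus*.

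Genes that act upstream of such effectors were read from a list of 18 regulators of defence, with the worm's p38 pathway from *tir-1*, an adaptor gene that is not the TIR1 transgene, to *pmk-1* and *atf-7*. All 18 were tested and none was called in any of the 5 comparisons with edgeR (2 at an unadjusted p under 0.05 in N2 and 6 in *syp-2::AID* worms with auxin). Without auxin-treated *syp-2::AID* replicates 3 and 4, *tir-1* (log2 0.73, edgeR adjusted p = 0.00582) and *pmk-1* (log2 0.53, edgeR adjusted p = 0.0194) rose in N2. *dkf-2*, a protein kinase D gene (log2 -0.25, edgeR adjusted p = 0.0361), fell there. *pmk-1* was higher in untreated *syp-2::AID* than N2 worms (log2 0.46, edgeR adjusted p = 0.0379), and none was called with auxin in *syp-2::AID* worms. In that fit 12.9% of all genes were called with auxin in N2 and 12.4% between untreated strains. These few calls among 18 genes are therefore not read as a result about the list. With all libraries *pmk-1* had a log2 fold change of 0.53 in N2 (SE 0.16, edgeR adjusted p = 0.0636) and -0.11 in *syp-2::AID* worms (SE 0.16, edgeR adjusted p = 0.628). Of 7 tested effectors of the p38 pathway outside the family, *F35E12.5* rose in N2 (log2 1.69, SE 0.30, edgeR adjusted p = 0.00179) and in *syp-2::AID* worms (log2 1.32, SE 0.28, edgeR adjusted p = 0.00722). *T24B8.5*, a secreted defence peptide gene, fell in *syp-2::AID* worms (log2 -1.19, SE 0.31, edgeR adjusted p = 0.0270). Without treated replicates 3 and 4 these *syp-2::AID* values were 1.29 for *F35E12.5* (edgeR adjusted p = 0.0414) and -1.79 for *T24B8.5* (edgeR adjusted p = 0.00438). There *T24B8.5* was higher in untreated *syp-2::AID* than untreated N2 worms (log2 1.20, edgeR adjusted p = 0.0108). Between treated strains it was not called (log2 -0.26, edgeR adjusted p = 0.828). *F35E12.8* also rose in N2 in that fit (log2 0.88, edgeR adjusted p = 0.0329). The transcript of a kinase does not measure its activity.

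Calls differed in how firmly they stood. Of the 17 members called with auxin in N2, 9 were called in every alternative analysis run, namely *clec-4*, *clec-5*, *clec-8*, *clec-10*, *clec-67*, *clec-81*, *clec-186*, *clec-210* and *clec-266*. Of the 16 called in *syp-2::AID* worms 10 were, namely *clec-4*, *clec-5*, *clec-10*, *clec-49*, *clec-50*, *clec-57*, *clec-67*, *clec-186*, *clec-206* and *clec-210*. Of these *clec-206* is listed as a description only, since it passed the main filter through the groups in which it is high. The call between untreated strains and the 2 calls between treated strains were each lost in some alternatives. For a single member an exact two-sided permutation test of 4 against 4 libraries cannot go below p = 0.0286, which is the value of every member whose groups did not overlap.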

How the data were processed

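Whole adult worms gave 16 RNA libraries, with 4 biological replicates for every one of the 4 groups. Per the labels, reads were converted with bcl2fastq 2.1.7 and aligned to ce10 with TopHat2 2.0.11, and the authors counted them per gene with featureCounts and tested with DESeq2. The deposited values are raw counts per gene, not normalized. Nothing read here states the strand setting, the gene annotation or how reads matching several genes were treated (not given in the sources used here). Chromosomes, neighbours, overlaps and exon lengths came from the WBcel235 annotation, which held 237 of the 249 names.

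The counts were analysed here with edgeR 4.0.16 in R 4.3.3. Genes were kept by filterByExpr with a minimum count of 10 (11776 genes), scaled by TMM and fitted with a robust quasi-likelihood model on the 4 groups, with 5 comparisons and Benjamini-Hochberg adjustment over all tested genes at 0.05. CPM are counts divided by the scaled total of the tested genes, on the usual per-megaread basis. Fold changes in the text are from this model. Members named were those called, the 3 largest rises and falls in each comparison, those with the highest levels, those at the edge of the filter and those on the infection list. The members and gene lists were chosen with earlier results of these data known. Alternatives were other scaling (RLE or none), DESeq2 1.42.0, limma-voom (limma 3.58.1), other filters, a replicate block, the 8 libraries of a comparison alone, and each replicate left out. The code was tested on simulated data. Total counts of 13964761 to 18741524 make 10 counts about 1 CPM or less. Intervals from counts cover counting error only. The edgeR p-values set a group difference against the spread between replicates, estimated from all libraries in the fit and moderated over genes.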

Additional observations from a re-analysis of the deposited data

Results flagged for a closer look

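In groups of 4 libraries, 13 of 156 had a library far from the other 3 by Dixon's criterion, where chance gives about 1 in 20. Among the auxin-treated *syp-2::AID* libraries, replicate 4 was high for *clec-210* (18.4 CPM, others 13.8 to 14.5), *clec-145* (4.80 CPM, others 3.55 to 3.70) and *clec-66* (9.52 CPM, others 4.70 to 5.51), and replicate 3 was high for *clec-5* (4.35 CPM, others 2.23 to 2.50). Both replicates differ from all other libraries in their shares of ribosomal and vitellogenin counts, and the part of this in those values was not tested. Among the untreated *syp-2::AID* libraries, replicate 1 was high for *clec-186* (42.1 CPM, others 36.2 to 36.6) and replicate 4 for *clec-67* (2.58 CPM, others 0.909 to 1.15). Among the untreated N2 libraries, replicate 4 was high for *clec-86* (2.34 CPM, others 0.588 to 0.813) and low for *clec-85* (20.9 CPM, others 29.9 to 30.4), replicate 3 was low for *clec-41* (13.9 CPM, others 16.8 to 17.3), and replicate 1 was high for *clec-52* (5.23 CPM, others 4.10 to 4.29). In auxin-treated N2 worms replicate 1 was low for *clec-85* (20.8 CPM, others 26.2 to 26.9), and replicate 2 was low for *clec-87* (1568 CPM, others 1651 to 1657) and high for *clec-63* (756 CPM, others 632 to 644).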

How the results depend on the processing

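No named member changed direction under any alternative in a comparison where it was called, while the call held in 766 such values and was lost in 127. For auxin in N2 the count of called members ranged from 10 to 20 with a replicate left out, against 17, and was 26 without auxin-treated *syp-2::AID* replicates 3 and 4, an alternative chosen after seeing the data. For auxin in *syp-2::AID* worms it ranged from 13 to 26, against 16, being 26 without auxin-treated replicate 2. Between untreated strains, against 1, it was 2 with RLE, 5 without scaling, 10 with DESeq2, 2 with all genes of at least 1 count, 4 in the 8 libraries alone, 0 to 7 with a replicate left out (7 without untreated N2 replicate 4), and 14 without the pair of replicates. Between treated strains, against 2, it was 8 with DESeq2, 0 with all genes of at least 1 count, 0 in the 8 libraries alone, 0 to 12 with a replicate left out (12 without auxin-treated *syp-2::AID* replicate 2 and 11 without replicate 1), and 1 without the pair. Between untreated strains 3.64% of all genes were called where 7 of 78 members were. Between treated strains 20.1% of all genes were called where 12 of 80 members were, and 17% where 11 of 80 were. Without the pair 12.9% of all genes were called for auxin in N2, 12.4% between untreated and 0.435% between treated strains. Counts given here without such a share are not read against all genes. The cause of these moves was not tested. No scaling moved the median log2 fold change of all genes by 0.14 for auxin in N2, -0.17 for the difference and 0.13 for untreated strains. Same-numbered libraries did not deviate together throughout (r from -0.39 to 0.43), so the libraries were treated as unpaired, though a pairing of some is not excluded. With the replicate block the counts were 16, 14, 0, 0 and 0 for auxin in N2, auxin in *syp-2::AID* worms, their difference, untreated and treated strains. For the difference in response, the count was 0 under every alternative run. Members near 1 CPM rest on few counts a library, which limits what could be called among them.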
